A study of Homo sapiens with 4 samples.

Results

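Thrombomodulin (THBD), the endothelial protein C receptor (PROCR), tissue factor (F3), its 2 Kunitz-type inhibitors TFPI and TFPI2 and the protease-activated receptors F2R, F2RL1 and F2RL2 were examined in melanoma cells exposed to a medium-chain fatty acid. The 8 genes were selected by function, with their octanoate and vehicle values in this experiment already known, and all 8 were found by symbol among the 56832 genes of the deposited expression table. Because those values took part in the choice, the differences of the 8 genes between the groups are given as a description, without a test. The cells were A375, an established human melanoma line with the genotype WT in the labels. One group received 1 mM octanoate, a saturated medium-chain fatty acid, and the other its isopropanol vehicle, each for 48 h; the line was maintained in medium with serum. Each group had 2 libraries of total RNA, numbered 1 and 2. No label says whether the libraries of a group came from separate cultures, so the spread between them may be technical.

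As background, tissue factor is the membrane protein that starts blood coagulation: it binds factor VII, and the cascade that follows generates thrombin. Thrombomodulin binds thrombin and turns it toward activating protein C, which the endothelial protein C receptor presents. Protease-activated receptors are G protein-coupled receptors that proteases such as thrombin switch on by cutting their outer end. Tumour cells, melanoma cells among them, are known to carry tissue factor and the thrombin receptor F2R.

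Recovered read totals lay between 67785956 and 78005035 per library. Libraries of a group resembled each other far more than libraries of different groups: the chi-square statistic of the read counts per degree of freedom was 4.77 within vehicle and 6.50 within octanoate, against 49.4 to 54.3 between groups. Of 11 melanoma markers, 10 were tested, 2 were called higher and 3 lower under octanoate, and their summed level was 93525 to 100450 normalised counts in vehicle and 87700 to 93309 in octanoate. S100B fell by 1.12 on the log2 scale (SE 0.07, limma adjusted p 9.15e-12), ERBB3 by 0.51 (SE 0.06, limma adjusted p 1.7e-07) and MITF, the melanocyte master regulator, by 0.48 (SE 0.06, limma adjusted p 2.33e-06). AXL was called higher by 0.42 (SE 0.06, limma adjusted p 4.33e-06), a call lost without an intensity trend in the variance prior (adjusted p 0.0536), and PMEL by 0.55 (SE 0.19, limma adjusted p 0.0289), a call lost when any 1 library was left out. These 5 markers were named after their values were seen. Exons of CDK2 overlap those of PMEL on the opposite strand, and strand use in counting is not given. CDK2 had 5331 and 5321 normalised counts in vehicle and 6621 and 6623 in octanoate, far above PMEL. Whether its reads entered the PMEL count was not tested. SOX10 stood between 34072 and 41363 normalised counts in every library, whereas the pigment genes MLANA (34.9 to 52.0) and TYR (1.93 to 3.93) were low. A normalised count here is the number of reads of a gene divided by the size factor of its library.

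All 8 genes differed between the groups without overlap of the libraries, 6 of them higher and 2 lower under octanoate. In the limma fit across all 20250 genes averaging 10 normalised counts or more, at a Benjamini-Hochberg adjusted p under 0.05, 5 of the 8 were called higher and 2 lower, and F2RL2 was not called. The same fit called 29.9% of all genes tested, 16.2% higher and 13.7% lower, and the groups did not overlap for 63.1% of them. Since the contrast itself took part in choosing the genes, nothing is read from these counts. All 8 genes passed the filter on low values, THBD only through its octanoate libraries.

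**Figure D1:**
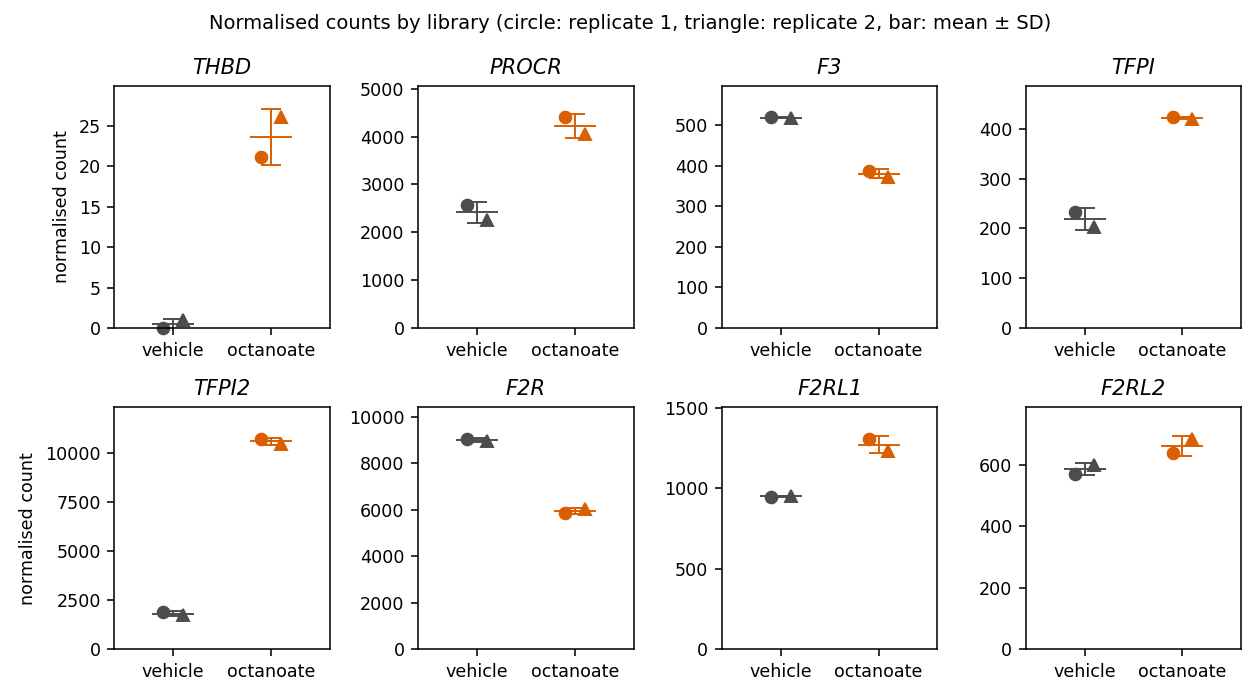
Normalised counts of the 8 genes in each library, on linear axes that start at 0. Circles are replicate 1, triangles replicate 2, and bars the mean ± SD (n = 2) of vehicle (grey) and octanoate (orange). In every panel both octanoate libraries lie on the same side of both vehicle libraries, below them for F3 and F2R and above them for the other 6 genes.

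F3, which encodes tissue factor, was lower under octanoate. Its normalised count was 519 and 517 in vehicle 1 and 2 and 388 and 373 in octanoate 1 and 2. The group means were 518 ± 1.33 and 380 ± 10.7 (SD, n = 2 each), and the log2 difference was -0.45 (SE 0.10) on the scale of log2(normalised count + 1), which is used for all differences below. Both octanoate libraries were below both vehicle libraries, by far more than the spread within either group. In GENCODE 29 (hg38, the build named by the submitters' processing notes), F3 lies at chr1:94529225-94541800 on the minus strand. No exon of another gene overlaps it there, and its transcripts share no stretch of 100 bases or more at 95% identity with another gene.

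TFPI2, a secreted Kunitz-type protease inhibitor of the matrix that inhibits plasmin and trypsin and the tissue factor complex more weakly, had the largest difference among the 7 abundant genes of the group. Its normalised count was 1904 and 1730 in vehicle 1 and 2, against 10703 and 10429 in octanoate 1 and 2. The means of 1817 ± 123 and 10566 ± 194 (SD, n = 2 each) differ by 2.54 on the log2 scale (SE 0.06), or 5.82-fold. Among the 13482 tested genes with a mean of at least 100, TFPI2 ranked 17 by the size of its rise. The authors' deposited table, which is sorted by significance, lists a log2 fold change of 2.54 for TFPI2. TFPI2 lies at chr7:93885396-93890991 on the minus strand, and exons of GNGT1 and of the antisense RNA AC002076.1 overlap its exons on the opposite strand. GNGT1 had 151, 155, 164 and 154 normalised counts in vehicle 1, vehicle 2, octanoate 1 and octanoate 2, far below TFPI2 in each library.

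TFPI, the main inhibitor of the tissue factor and factor VIIa complex, was also higher under octanoate, from a low level. It had 234 and 203 normalised counts in vehicle 1 and 2 and 423 and 419 in octanoate 1 and 2. The means were 219 ± 21.3 and 421 ± 2.23 (SD, n = 2 each), which differ by 0.95 in log2 (SE 0.11). The 2 octanoate libraries were nearly alike, and both exceeded the vehicle libraries by more than their spread. TFPI lies at chr2:187464230-187565760 on the minus strand. An antisense RNA, AC007319.1, overlaps its exons with between 1.08 and 5.78 normalised counts, and TFPI transcripts share at least 100 bases with 6 other genes. No such overlap or shared sequence was found for F3 or THBD. Whether reads of other genes entered the TFPI count was not tested.

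The promoters of F3 and TFPI2 are shown because F3 had the lower level under octanoate while TFPI2, whose product can inhibit the complex of tissue factor and factor VIIa, had the largest difference among the abundant genes. Each sequence is RefSeq's (GRCh38.p14) and runs 5′ to 3′ on the gene's own strand, from 250 bases before to 50 bases after the RefSeq start. GENCODE 29 places the outermost start of both genes upstream of that start. The F3 window is chr1:94541710-94542009 and the TFPI2 window chr7:93890704-93891003, both on the minus strand. Capitals mark 4 motifs searched on both strands: AP-1 (TGANTCA), SP1 (GGGCGG), a form of the NF-kappaB site (GGANTTTCC) and the TATA box (TATAAA).
F3: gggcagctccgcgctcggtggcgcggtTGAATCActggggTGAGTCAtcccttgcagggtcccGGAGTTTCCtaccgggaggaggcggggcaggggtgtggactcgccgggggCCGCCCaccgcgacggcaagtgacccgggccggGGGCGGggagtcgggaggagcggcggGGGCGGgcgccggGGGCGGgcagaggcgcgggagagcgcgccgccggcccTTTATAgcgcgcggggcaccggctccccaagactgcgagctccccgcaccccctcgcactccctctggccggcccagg
TFPI2: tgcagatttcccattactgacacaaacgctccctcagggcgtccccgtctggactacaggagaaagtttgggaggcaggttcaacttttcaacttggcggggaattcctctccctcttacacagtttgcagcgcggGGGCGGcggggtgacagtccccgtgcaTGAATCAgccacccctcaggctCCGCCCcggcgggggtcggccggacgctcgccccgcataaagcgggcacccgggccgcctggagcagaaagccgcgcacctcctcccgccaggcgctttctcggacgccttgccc

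The 2 promoters shared several motifs and differed in others. Both held AP-1 letters, F3 at 2 places beginning 223 and 210 bases before the start and TFPI2 at 1 place beginning 87 bases before it, where 7.71% of the 35116 promoters in the RefSeq table hold such a match. SP1 letters stood at 4 places in F3 and at 2 in TFPI2, and 45% of all promoters hold them. The EGR1 motif (GCGNGGGCG), which overlaps an SP1 match in both genes, was found in both and in 9.43% of all promoters. F3 alone of the pair held the NF-kappaB form, found in 1.64% of all promoters, and the TATA letters, read on the other strand and found in 11.5%. A KLF motif (CACCC) stood at 3 places in each, as it does at 1 or more places in 59.9% of promoters. A match of letters is not evidence of binding.

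The table held the promoters of 6 of the 8 genes, not those of THBD and F2R. AP-1 letters were in 3 of the 6 (F3, TFPI2 and F2RL2), and these 3 genes were lower, higher and not called, in that order. SP1 letters were in 4 of the 6 (PROCR, F3, TFPI2 and F2RL1). No match was found in any of the 6 for the letters of CREB (TGACGTCA, in 1.85% of all promoters), of ATF4 (TGATGNAA, in 3.62%) or of the E-box (CACGTG, in 7.26%). The promoters also differed in base composition: G and C made up 77.3% of the F3 window, 69% of F2RL1, 65.3% of TFPI2 and 61% of PROCR, but 44.7% of F2RL2 and 39.3% of TFPI, with a median of 58.7% over all promoters.

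THBD went from the edge of detection to a low level. It had 0 reads in vehicle 1 and 1 read in vehicle 2, and 22 and 24 reads in octanoate 1 and 2. The normalised counts were 0 and 0.969 in vehicle and 21.2 and 26.0 in octanoate, means of 0.484 ± 0.685 and 23.6 ± 3.42 (SD, n = 2 each). From the pooled reads, 46 against 1, octanoate held 48.1 times the vehicle level, with an exact 95% interval of 8.21 to 1940 that covers counting error only. The fitted log2 difference of 4.12 (SE 0.70) depends on the constant added before taking logs: it was 2.38 with 5 in place of 1, and 4.81 with 0.5. The authors' deposited table lists a log2 fold change of 5.60 with a standard error of 1.64 for THBD. Its adjusted p and its place there, 33002 of 33533 genes, may mark a gene left out of the adjustment and are not read as a result. In the same table F3 has a log2 fold change of -0.446 (SE 0.145). THBD is a single exon of 4109 bases at chr20:23045633-23049741 on the minus strand, with no overlapping gene and no shared sequence found.

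Since THBD is best known from endothelium, endothelial markers were set beside it. Of 10 such markers, 8 were tested, 3 were called higher under octanoate and none lower. The summed level of the 10 was 1898 to 1960 normalised counts in vehicle and 2945 to 3066 in octanoate, and none was at 0 in every library. TIE1, a receptor tyrosine kinase, rose by 1.78 (SE 0.13, limma adjusted p 2.77e-10), PECAM1, an adhesion molecule, by 0.95 (SE 0.14, limma adjusted p 1.05e-05) and ROBO4, a guidance receptor, by 0.66 (SE 0.07, limma adjusted p 1.02e-07). These 3 were named after their values were seen. ROBO4 made up most of the summed level, with 1145 and 1104 normalised counts in vehicle and 1836 and 1730 in octanoate. Exons of the antisense RNAs AP003501.1 and AP003501.2 overlap those of ROBO4, whose transcripts share at least 100 bases with 20 other genes. KDR had 373 and 376 in vehicle and 445 and 449 in octanoate and was not called (limma adjusted p 0.0542). TEK, ESAM and CLDN5 overlapped between the groups and were not called. The defining markers CDH5, the cadherin of endothelial junctions (8.66 to 21.7 normalised counts), and ERG, a transcription factor (0.963 to 3.25), were low in all 4 libraries. Markers of other cells that can carry THBD or F3 were summed in the same way: of 7 monocyte markers 3 were tested and 1 was called higher (summed level 632 to 697 in vehicle, 778 to 827 in octanoate), of 7 keratinocyte markers 3 were tested and 1 was called lower (5713 to 6745, then 4823 to 6479, KRT1 at 0), of 7 platelet and megakaryocyte markers 3 were tested and none called (109 to 148, then 113 to 132, GP1BB at 0), and of 7 fibroblast markers 6 were tested and 2 were called lower (2569 to 2631, then 2251 to 2395). The part of other cells in the values of THBD and the other genes was not tested. In bulk RNA, more cells that express a gene and more RNA per cell cannot be told apart.

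PROCR, the receptor that presents protein C to thrombin bound to thrombomodulin, was abundant in both groups and higher under octanoate. It had 2567 and 2264 normalised counts in vehicle 1 and 2 and 4400 and 4048 in octanoate 1 and 2. The means of 2415 ± 214 and 4224 ± 249 (SD, n = 2 each) gave a log2 difference of 0.81 (SE 0.07), or 1.75-fold. The lowest octanoate library lay well above the highest vehicle library. PROCR lies at chr20:35172073-35216240 on the plus strand, where the antisense RNA AL356652.1 overlaps its exons and shares 219 bases with it. The substrate of this receptor, protein C (PROC), was near the limit of detection, with 5.89 and 5.81 normalised counts in vehicle and 8.66 and 9.75 in octanoate, too few to be tested.

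The 3 protease-activated receptor genes of the group lie together on chromosome 5 within 219.8 kb, and did not move alike. F2R encodes the main thrombin receptor, PAR1. It had 9060 and 8953 normalised counts in vehicle 1 and 2 and 5849 and 6041 in octanoate 1 and 2, means of 9006 ± 75.4 and 5945 ± 135 (SD, n = 2 each). The log2 difference was -0.60 (SE 0.06), so that the vehicle level was 1.52 times the octanoate level. F2R lies at chr5:76716043-76735781 on the plus strand. The antisense RNA AC025188.1 overlaps its exons, and its transcripts share at least 100 bases with 15 other genes, at most 152 bases with any of them.

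F2RL1 encodes PAR2, the receptor for trypsin-like proteases and the tissue factor and factor VIIa complex. It was higher under octanoate, with 945 and 952 normalised counts in vehicle 1 and 2 and 1306 and 1231 in octanoate 1 and 2. The means were 949 ± 5.05 and 1269 ± 53.1 (SD, n = 2 each), which differ by 0.42 in log2 (SE 0.07). Without an intensity trend in the variance prior F2RL1 was no longer called. F2RL1 lies at chr5:76818933-76835315 on the plus strand, 83.2 kb from F2R, with no overlapping gene.

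F2RL2 encodes PAR3, a thrombin receptor that can act as a cofactor for other receptors of the family. It had 570 and 598 normalised counts in vehicle 1 and 2 and 637 and 684 in octanoate 1 and 2. Although the groups did not overlap, their means of 584 ± 19.4 and 661 ± 33.0 (SD, n = 2 each) differ by only 0.18 on the log2 scale (SE 0.09), and the fit did not call it. F2RL2 lies at chr5:76615482-76623434 on the minus strand and its exons overlap those of IQGAP2, which lies on the opposite strand. IQGAP2 had 549 and 584 normalised counts in vehicle and 441 and 411 in octanoate. Whether the strand was used in counting is not given in the sources used here.

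The remaining receptor of the family, F2RL3, which encodes the thrombin receptor PAR4, is not one of the 8 genes; like THBD, it passed the filter on low values only through its octanoate libraries. It had 5.89 and 6.78 normalised counts in vehicle 1 and 2 and 18.3 and 14.1 in octanoate 1 and 2. The log2 difference of 1.22 (SE 0.50) missed the threshold (limma adjusted p 0.0666). Of the 11 alternatives that tested it, 8 did not call it, with an adjusted p up to 0.173 with no filter on low values, and 3 did, among them edgeR on recovered reads (adjusted p 0.0499). Its adjusted p in the authors' deposited table, as for THBD, may mark a gene left out of the adjustment and is not read as a result. The pooled reads, 32 against 13, gave a ratio of 2.57 with an exact 95% interval of 1.31 to 5.34 for counting error.

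**Figure D2:**
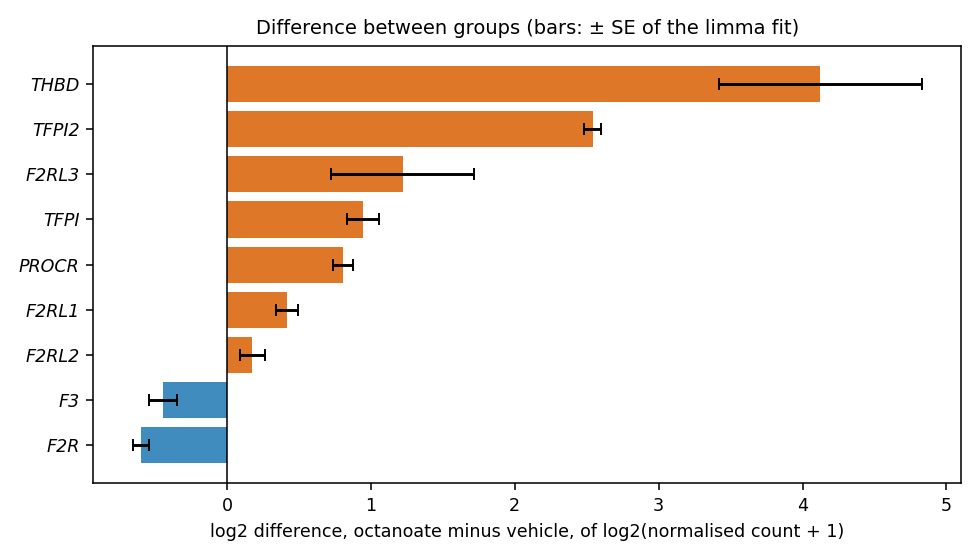
Log2 difference of each gene, octanoate minus vehicle, with the SE of the limma fit as error bars; orange bars are above 0 and blue bars below. F3 and F2R lie below 0, THBD and TFPI2 are the 2 largest bars, and the error bars of THBD and F2RL3, which have few reads, are the widest.

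Levels of different genes can be compared only per length, so normalised counts were divided by the kilobases of exon in GENCODE 29's basic set. In vehicle the order was F2R (2215 per kb), PROCR (1792), TFPI2 (738), F2RL1 (326), F3 (227), F2RL2 (170), TFPI (52.4) and THBD (0.118). In octanoate it was TFPI2 (4290 per kb), PROCR (3133), F2R (1462), F2RL1 (435), F2RL2 (193), F3 (166), TFPI (101) and THBD (5.74). In both orders the ranges of neighbouring genes over the 2 libraries were apart, although with 2 libraries a range says little. TFPI2 took the place of F2R at the head of the order, and F3 and F2RL2 changed places.

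The same transcript levels give ratios between these genes, which say nothing of protein or activity. TFPI2 per kb was 3.41 and 3.11 times F3 in vehicle 1 and 2, and 25.6 and 26.0 times F3 in octanoate 1 and 2. TFPI per kb was 0.247 and 0.216 times F3 in vehicle and 0.597 and 0.617 times in octanoate, so F3 was above TFPI in each library. Between the receptors, F2R per kb was 6.87 and 6.74 times F2RL1 in vehicle and 3.21 and 3.52 times in octanoate. Among 15141 tested genes with a length, THBD stood at the 5.07th percentile in octanoate, F3 at the 41.0th in vehicle and the 35.8th in octanoate, and TFPI2 at the 64.4th and the 93.1st.

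**Figure D3:**
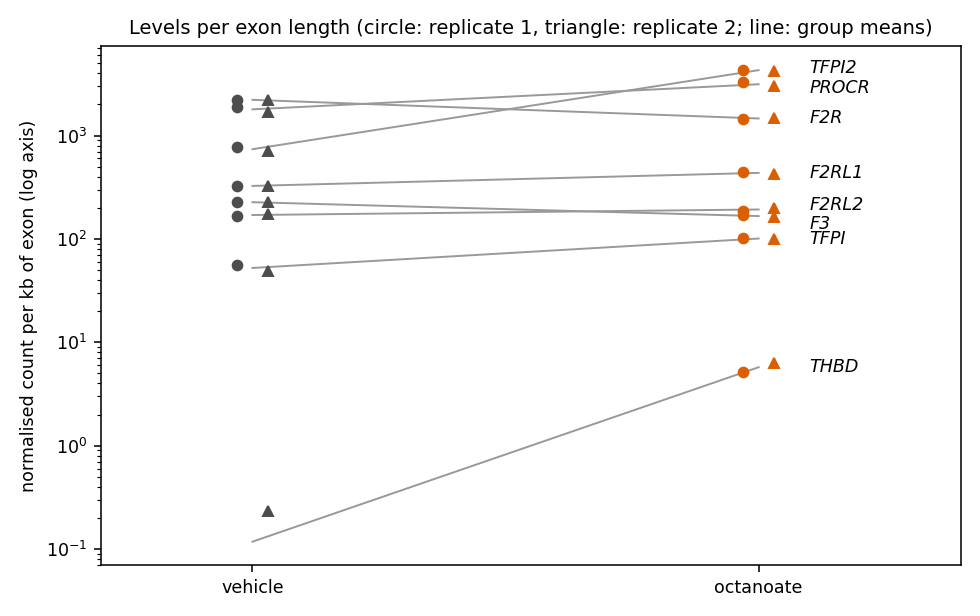
Normalised count per kb of exon on a log axis for the 8 genes in vehicle (grey) and octanoate (orange); circles are replicate 1, triangles replicate 2, and lines join the group means. The lines of TFPI2 and F2R cross, as do those of F3 and F2RL2, and vehicle 1 of THBD, at 0, cannot be drawn on this axis.

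Genes that act with the 8 were then examined in 9 lists made by function, 131 genes in all, of which 99 were tested. Of these, 34 were called higher and 18 lower, 52.5% against 29.9% of all genes tested. The lists were chosen with earlier results of these data known, so nothing is read from that difference. The shares also depend on abundance: with the filter at a mean of 50, 5764 of 15069 genes and 51 list genes were called. The median log2 difference of all genes tested was 0.01. Of the list genes named below, the calls of ARRB2 (adjusted p 0.0796), PLCB4 (0.0821), LMAN1 (0.0922), ATP11A (0.106), SMPD1 (0.0585), P2RY1 (0.0733), SERPINE2 (0.0756), GNA13 (0.125), FURIN (0.226), ANO6 (0.259), F12 (0.0784) and KLF2 (0.293) were lost when the limma fit had no intensity trend. Lists hold genes of unlike roles, and none of their shares was itself tested.

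Few circulating coagulation factors were expressed. Of 16 genes, 12 had a mean below 10 normalised counts, among them prothrombin (F2, 3.85 to 6.50), factor VII (F7, 0 to 0.969) and factor X (F10, 3.25 to 10.6). Of the 4 tested, 2 were called higher, with a list median of 0.23. F12, the contact factor, was called higher, from 173 ± 9.18 to 230 ± 14.6 normalised counts (SD, n = 2 each), by 0.41 (SE 0.13, limma adjusted p 0.0192). That call was lost without vehicle 2 or without octanoate 1. Exons of GRK6 overlap those of F12 on the opposite strand, with 276 bases shared. GRK6 had 3222 and 2842 normalised counts in vehicle and 4312 and 4087 in octanoate, far above F12. Whether its reads entered the F12 count was not tested. The other called gene, VWF, the carrier of factor VIII, had a log2 difference of 0.50 (limma adjusted p 0.0479), and it was named after its values were seen; leaving out any 1 of the 4 libraries ended its call.

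Of 13 plasma anticoagulants and serpins, 10 were tested, 4 were called higher and 1 lower, with a median of 0.03. SERPIND1, which encodes the thrombin inhibitor heparin cofactor II, rose from 353 and 314 normalised counts in vehicle to 1081 and 1140 in octanoate, by 1.73 (SE 0.09, limma adjusted p 3.36e-13). GAS6, a ligand of TAM receptor kinases related to protein S, rose by 0.45 (SE 0.09, limma adjusted p 0.000678), and an antisense gene overlaps it; the call was lost with no filter on low values (adjusted p 0.0741) and without an intensity trend (0.11). A2M, the broad protease trap alpha-2-macroglobulin, fell from 978 and 691 to 486 and 436, by 0.84 on the log2 scale (SE 0.12, limma adjusted p 4.94e-06), a call likewise lost with no filter (adjusted p 0.0549) and without an intensity trend (0.0996). SERPINE2, protease nexin-1, an inhibitor of thrombin named after its values were seen, was by far the most abundant of these genes, at 444161 and 403437 normalised counts in vehicle and 551473 and 551226 in octanoate, and rose by 0.38 (SE 0.08, limma adjusted p 0.00075). Protein S (PROS1), the cofactor of protein C, had 1260 and 1257 in vehicle and 1427 and 1398 in octanoate and was not called (limma adjusted p 0.0788).

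Fibrinolysis genes moved in both directions: of 11, 9 were tested, 6 were called higher and 1 lower, with a median of 0.33. PLAUR, the urokinase receptor, rose from 2700 and 2490 normalised counts in vehicle to 6084 and 5915 in octanoate, by 1.21 (SE 0.06, limma adjusted p 1.95e-13). PLAT, tissue plasminogen activator, fell from 9426 and 9073 to 5897 and 5484, by 0.70 on the log2 scale (SE 0.06, limma adjusted p 1.63e-09). Urokinase itself (PLAU), named after its values were seen, had 22.6 and 17.4 normalised counts in vehicle and 43.3 and 39.0 in octanoate. It was called higher by 1.01 (SE 0.31, limma adjusted p 0.0139), the direction of its receptor. That call was lost with no filter on low values, without an intensity trend, without vehicle 2 and without octanoate 1. Exons of C10orf55 overlap those of PLAU, with 402 bases shared. PLAT was the only gene of the list called lower, against 6 called higher.

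The list of membrane proteases and their inhibitors also holds proteases not bound to the membrane, such as MMP1. Several of the listed proteases cut protease-activated receptors. Of the 15 genes, 8 were tested, 5 were called higher and 2 lower, with a median of 0.78. MMP1, a collagenase that can cut PAR1, rose from 182 and 203 normalised counts in vehicle to 421 and 402 in octanoate, by 1.09 (SE 0.11, limma adjusted p 7.64e-08). SPINT1, a membrane inhibitor of membrane proteases that like TFPI carries Kunitz domains, rose by 0.87 (SE 0.13, limma adjusted p 1.87e-05). HPN, the membrane protease hepsin, fell from 220 and 225 to 97.2 and 120, by 1.03 on the log2 scale (SE 0.15, limma adjusted p 7.81e-06). Antisense genes overlap exons of SPINT1 and HPN, and a pseudogene overlaps MMP1. The matriptase gene ST14 had between 7.75 and 14.1 normalised counts and was not tested.

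Of 21 receptor signalling partners, all were tested, 2 were called higher and 5 lower, 33.3% against 29.9% of all genes, with a median of -0.05. ARRB2, a beta-arrestin that uncouples receptors, rose by 0.29 (SE 0.06, limma adjusted p 0.000971). PLCB4, a phospholipase C, fell by 0.46 on the log2 scale (SE 0.09, limma adjusted p 0.000407), and GNA13, a G protein alpha subunit, fell by 0.24 (SE 0.06, limma adjusted p 0.00276). Without octanoate 1 the adjusted p of GNA13 was 0.0649.

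Of 7 genes of the vitamin K cycle and factor secretion, all tested, 2 were called higher and none lower (median 0.14). LMAN1, a cargo receptor for factors V and VIII, rose by 0.29 (SE 0.06, limma adjusted p 0.000398), and FURIN, a proprotein convertase, by 0.19 (SE 0.06, limma adjusted p 0.0202). Of 8 genes of phospholipid exposure and tissue factor activity, 7 were tested, 2 were called higher and 2 lower (median 0.12). The flippase gene ATP11A rose by 0.25 (SE 0.06, limma adjusted p 0.00174), the scramblase gene ANO6 by 0.17 (SE 0.06, limma adjusted p 0.0348), and the acid sphingomyelinase gene SMPD1 fell by 0.43 on the log2 scale (SE 0.08, limma adjusted p 0.000144). The calls of FURIN and ANO6 rest on single libraries: the adjusted p was 0.196 for FURIN without vehicle 2 and 0.204 without octanoate 1, and for ANO6 0.0733 without vehicle 1, 0.123 without vehicle 2 and 0.446 without octanoate 2.

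Transcription regulators known to act on THBD or F3 were all expressed: of 23 tested, 10 were called higher and 5 lower, with a median of 0.11. JUN, an AP-1 subunit, rose from 1648 and 1514 normalised counts in vehicle to 4221 and 4015 in octanoate, by 1.38 (SE 0.07, limma adjusted p 5.34e-14). FOSL1, another AP-1 subunit, rose by 1.03 (SE 0.06, limma adjusted p 1.88e-12), with 412 bases shared with its pseudogene. KLF4, a Krueppel-like factor that raises THBD in endothelium, rose from 1799 and 1662 to 3940 and 3633, by 1.13 (SE 0.07, limma adjusted p 3.27e-12).

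Other regulators went different ways. Among further AP-1 subunit genes, named after their values were seen, FOSL2 was called higher by 0.61 and JUNB by 0.40. JUND was called lower by 0.26 (SE 0.10, limma adjusted p 0.0414), although its libraries overlapped between the groups. FOS and FOSB were not called. EGR1, a zinc finger factor known to act on the F3 promoter and named after its values were seen, rose by 1.07 (SE 0.09, limma adjusted p 9.9e-10), while F3 itself was lower. KLF2, the relative of KLF4 that also raises THBD and lowers F3 in endothelium, likewise named afterwards, had 591 and 510 normalised counts in vehicle and 478 and 275 in octanoate. Its log2 difference of -0.60 (SE 0.15, limma adjusted p 0.00477) rests on octanoate 2, since it was -0.20 (adjusted p 0.258) without that library, and -0.49 (adjusted p 0.0577) without vehicle 1. The NF-kappaB subunit genes RELA (5339 and 5139 in vehicle, 5382 and 4898 in octanoate) and NFKB1 (7431 and 7079, then 7357 and 7158) overlapped between the groups and were not called. A further subunit gene, REL, had 385 and 550 normalised counts in vehicle and 565 and 594 in octanoate and was called higher by 0.33 (SE 0.12, limma adjusted p 0.0378). That call rests on vehicle 1, without which the log2 difference was 0.07 (adjusted p 0.702), and it was also lost without octanoate 2 (adjusted p 0.069). These 3 NF-kappaB subunit genes were named after their values were seen. REL transcripts share at least 100 bases with 45 other genes. The longest stretch, 5702 bases, is shared with the non-coding RNA AC010733.2, whose exons overlap those of REL on the same strand. Whether reads of other genes entered the REL count was not tested.

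Of 17 relatives of the 8 in structure, 10 were tested, 1 was called higher and 2 lower, 30.0% against 29.9% of all genes, with a median of 0.11. CD93, a lectin-like relative of THBD that lies 29.6 kb from it, had 141 and 139 normalised counts in vehicle and 173 and 160 in octanoate and was not called (limma adjusted p 0.198). CD1D, an antigen-presenting molecule with the same fold as PROCR, fell from 585 and 546 to 291 and 335, by 0.86 on the log2 scale (SE 0.10, limma adjusted p 6.08e-07). P2RY1, a nucleotide receptor related to the protease-activated receptors, rose by 0.41 (SE 0.09, limma adjusted p 0.000721).

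**Figure D4:**
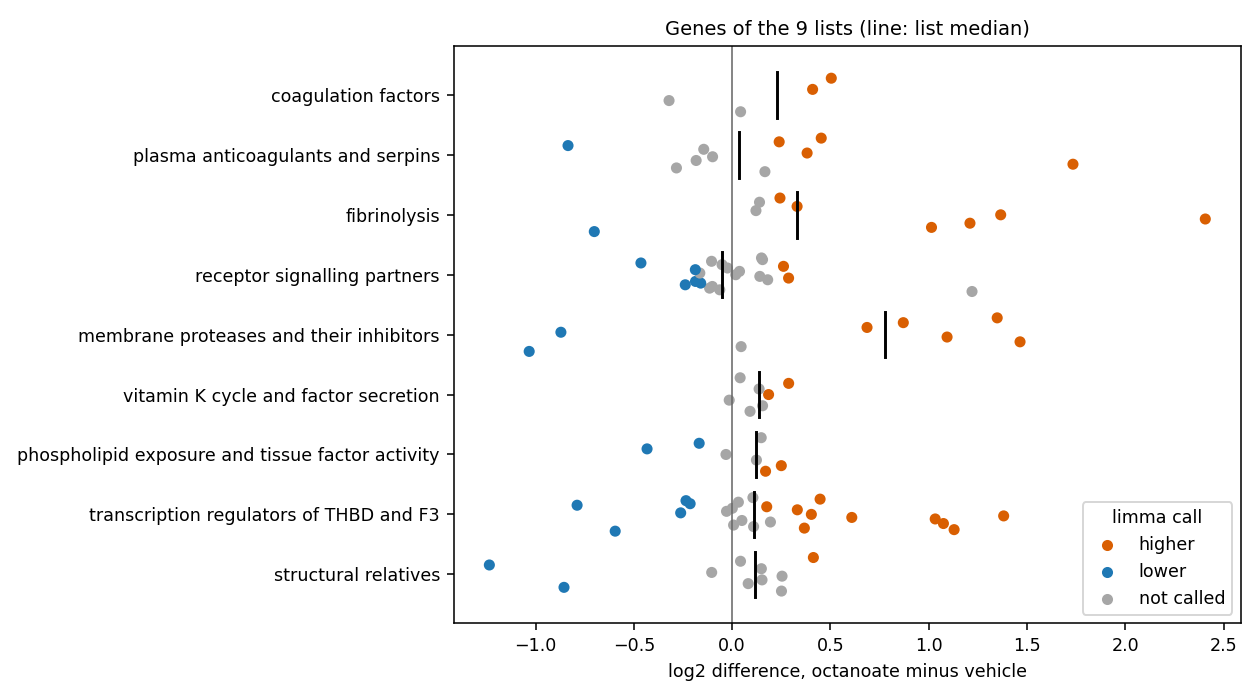
Log2 difference, octanoate minus vehicle, of each tested gene in the 9 lists; orange points were called higher, blue points lower and grey points not called, and black lines are list medians. The fibrinolysis list reaches furthest to the right. The list of membrane proteases and their inhibitors, which also holds proteases not bound to the membrane, has the highest median (0.78). Receptor signalling partners lie close to 0 around a median of -0.05, apart from F2RL3.

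By the Euclidean distance between log2 profiles centred over the 4 libraries, the genes with a mean of at least 100 most like F2R were SRSF6 (distance 0.03), ZNF362 (0.03) and MEIS2 (0.04). With 4 libraries such likeness reflects mainly the difference between the groups, which took part in choosing F2R. No such genes are given for THBD, whose profile depends on the pseudocount.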

How the data were processed

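RNA from 4 libraries of A375 cells was analysed. Per the submitters' processing notes, bcl2fastq 2.17, Trim Galore, STAR 2.4, Picard, HTSeq 0.9.1 and DESeq2 were used, with build hg38; strand use and annotation are not given in the sources used here. The deposited signal per gene is a normalised count, and 100% of positive values were whole multiples (tolerance 0.001) of 1 value per library, so whole reads were recovered. The authors' deposited comparison holds a log2 fold change, a test score, p-values and adjusted p-values. The log2 of each normalised count plus 1 was fitted with limma 3.58.1 (R 4.3.3) and no covariates, the variance prior following an intensity trend, for genes averaging 10 or more; the fit was tested on simulated data. An exact permutation test of 2 against 2 libraries cannot give a two-sided p below 0.333. Members and lists were chosen with earlier results of these data known. Named from each list were up to 3 called genes with the smallest p, averaging 100 or more, whose groups were apart, plus F2RL3; 1 gene that the rule names is not reported here. GRK2 and GRK3 were matched by older symbols. Places, lengths and overlaps came from GENCODE 29, and shared sequence from blastn (95% identity, 100 bases). Alternatives changed the pseudocount, filter, scaling, variance prior, replicate block, libraries and test (edgeR 4.0.16 and DESeq2 1.42.0 on recovered reads).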

Additional observations from a re-analysis of the deposited data

How the results depend on the processing

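Under the alternatives that included them, all 8 genes kept the sign of their log2 difference. For 7 of them it also stayed within the spread between replicates, but many of the alternatives could not show otherwise. Changes of filter, variance prior or block leave the difference as it was, and leaving out 1 library cannot move it beyond that spread. Only a change of pseudocount, scaling or test could. THBD moved with the pseudocount and the count models (2.38 with a pseudocount of 5, 4.81 with 0.5, 5.27 with edgeR and 5.59 with DESeq2). The number of the 8 called was 7, or 6 with the filter at a mean of 50 and without either octanoate library, where THBD was not tested, with DESeq2, which left THBD out of its adjustment, and without an intensity trend. F2RL2 was called in none of 14. All genes called numbered 6048, but 2595 with no filter on low values and 1625 without an intensity trend; list genes called numbered 52, but 23 and 17 under these. Leaving out 1 library gave 4382 to 4878 genes and 37 to 45 list genes. The cause was not tested.

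What the numbers 1 and 2 of the libraries stand for is not stated, so a pairing is not given by the design, and there would be 2 pairs only. Across 13482 genes, the difference between replicates 1 and 2 in vehicle had a correlation of 0.27 with that in octanoate. In a fit with a replicate block, 8376 genes, 7 of the 8 and 71 list genes were called, and F2RL3 was called (limma adjusted p 0.036). Depth limits THBD and F2RL3, each with fewer than 50 reads in all libraries together.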

Other observations

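Genes beside the 8 on their chromosomes were examined as the nearest tested protein-coding gene on each side. Those given in detail here were chosen after their values were seen, and 29.9% of all genes tested were called. GNG11, a G protein gamma subunit gene 30.7 kb from TFPI2, rose from 3139 and 3141 normalised counts in vehicle to 4718 and 4313 in octanoate, a log2 difference of 0.52 (limma adjusted p 5.13e-07). IQGAP2, a scaffold protein gene 7.91 kb from F2R, fell from 549 and 584 to 441 and 411, a log2 difference of -0.41 (limma adjusted p 0.00179), a call lost without an intensity trend (adjusted p 0.0673). EDEM2, a gene of glycoprotein disposal 24.7 kb from PROCR, was called higher by 0.25 (limma adjusted p 0.0102), a call lost without vehicle 2 or without octanoate 1. CALCRL, a receptor for adrenomedullin and related peptides 15.8 kb from TFPI, had 37.3 and 55.2 in vehicle and 76.0 and 68.3 in octanoate (log2 difference 0.65, limma adjusted p 0.0362), and was not called without vehicle 1 (0.38, adjusted p 0.316) or without either octanoate library. ABCD3, a peroxisomal transporter gene 10.6 kb from F3, had 4850 and 4942 in vehicle and 4736 and 4661 in octanoate and was not called (limma adjusted p 0.483). MMP24, at 10.4 kb nearer to PROCR than EDEM2, was not called (log2 difference -0.21, limma adjusted p 0.538). Nor were SLC44A3, GULP1, VPS50, S100Z, SV2C and CD93. NKX2-2, 1532 kb from THBD, was called higher by 0.61 (limma adjusted p 0.0429).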
